A study of Canis lupus familiaris with 9 samples.

Results

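The genes described here encode the proteasome and the pathway that carries its peptides to major histocompatibility complex (MHC) class I molecules, measured by mRNA sequencing in dog macrophages. They were taken by symbol: every gene named PSMA to PSMG followed by a digit, 12 named genes of peptide transport, loading, trimming and assembly, and the dog leukocyte antigen (DLA) class I genes. This gave 55 genes of the 12696 in the table. Monocytes from blood of healthy spayed female beagles of about 2 years were matured for 7 days with 10 ng/mL of human M-CSF. A further 24 h followed without added cytokine in M0, with canine IFN-γ added to 20 ng/mL in M1, and with canine IL-13 and IL-4 added to 20 ng/mL apiece in M2. There were 3 samples in each of the 3 groups, 9 in all, the sample labels repeat 3 names across the groups, and the methods state cultures of 3 unrelated dogs. All groups carry the same M-CSF culture, monocytes were selected by adherence to plastic after density separation, and M1 here means IFN-γ alone, with no bacterial product.

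Each value is a group mean of normalized counts, as the authors computed it. Values per sample were not analysed here, so no group mean below has a standard deviation, no difference between groups was tested, and no comparison can be set against the spread between dogs. A difference is therefore given as the ratio of 2 group means, on the log2 scale or as a fold. A gene was counted as past the fold when its means differed by at least 2-fold and the larger of them was at least 50 normalized counts. Levels were compared between groups within a gene or a ratio of 2 genes, because transcript lengths were not used here. The sums and shares over several genes, given for the markers and the class I genes, are of counts not corrected for length.

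The proteasome is a barrel of rings that cuts ubiquitin-tagged proteins into peptides. The barrel is the 20S core, with alpha subunits in its outer rings and beta subunits in its inner rings, and the 19S cap recognizes, unfolds and feeds in the substrate. IFN-γ is known to bring in a second set of catalytic beta subunits, which makes the immunoproteasome, and the activator PA28, an alternative cap. The transporter TAP then moves peptides into the endoplasmic reticulum (ER), where they are trimmed and loaded onto class I heavy chains held by beta-2-microglobulin, for display to CD8+ T cells.

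In M1 macrophages the immunoproteasome subunits, PSME1 and PSME2 of PA28 and the trimming enzymes had means between 2.13-fold and 7.83-fold those of M0. TAP1, TAPBP, TAPBPL and the class I regulator NLRC5 lay between 2.12-fold and 5.21-fold. The ER chaperones CALR, CANX and PDIA3 lay between 1.25-fold and 1.54-fold. Of the class I molecules, B2M, DLA-64 and DLA88 lay between 1.24-fold and 1.46-fold, and DLA-79 was at 3.49-fold. The 27 standard subunits of the core and the cap were between 1.21-fold and 2.53-fold, with 2 of them past 2-fold. Of the 55 genes, 53 had a higher mean in M1 than in M0, against 51.3% of the 10790 genes past the count minimum. Past 2-fold there were 14 members higher in M1, against 5.56% of all genes, and 0 lower, against 8.77%. Past 1.5-fold 26 members were higher, against 13.5% of all genes. The median log2 ratio of the members was 0.58, with quartiles of 0.39 and 0.95, where the median of all genes was 0.01, with quartiles of -0.36 and 0.34. In order of their means, 47 members stood highest in M1, then M2, then M0, an order that 26.5% of 10902 genes had. These cultures are bulk samples, in which fewer cells of a type and less RNA per cell cannot be told apart.

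**Figure D1:**
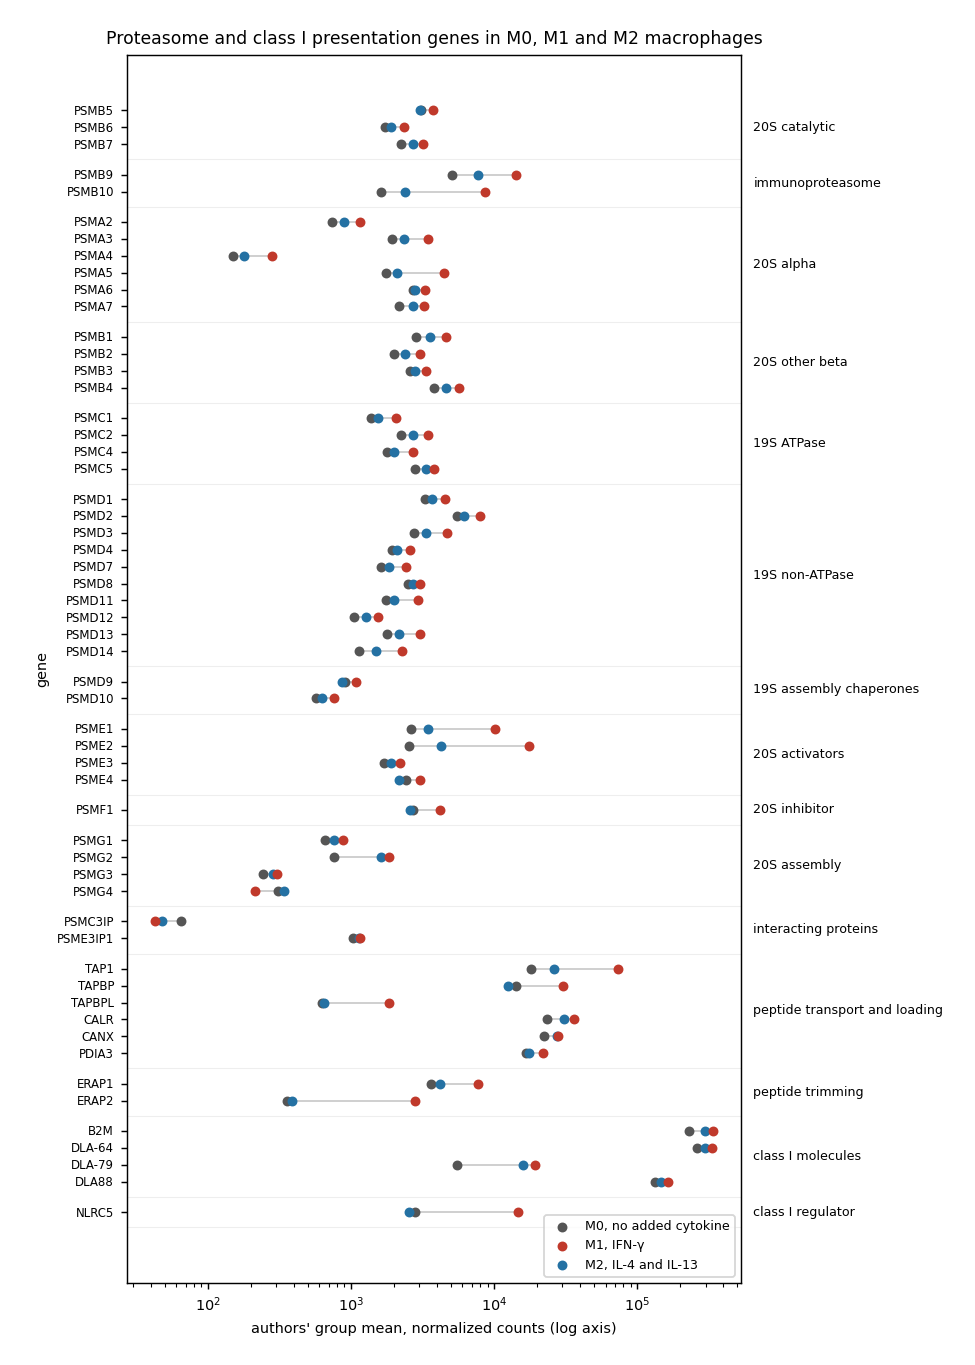
Authors' mean normalized count (horizontal log axis) of each of the 55 genes (vertical axis) in M0, M1 and M2 macrophages, ordered by role; each point is the mean of 3 samples and no error is available. The M1 point lies to the right of the M0 point for 53 genes, and the gap is widest for ERAP2, PSME2, PSMB10 and NLRC5.

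Facts of the libraries bear on every comparison. The group means added up to between 26728643 (M0) and 28039918 (M1), sums that are already scaled for depth and do not give it. The monocyte and macrophage markers fixed for this work, 7 of 8 of which were measured, had summed means of 208413 (M0), 75267 (M1) and 182050 (M2), so the labelled cell type was present in each group. The lower sum in M1 lay mostly in LYZ (64970 in M0 against 16855 in M1), CD163 (47679 against 9559) and CSF1R (63804 against 28337). Only AIF1 was higher in M1 than in M0, at 4525 against 3940. Only MRC1 was higher in M2 than in M0, at 33893 against 7046. T cell markers, 6 of 6 measured, summed to 1598, 5300 and 1329 in M0, M1 and M2, and most of that was CD2, while CD3D lay between 14.7 and 33.7. B cell markers, 5 of 5 measured, lay between 9991 and 12242, nearly all of it CD79A, while MS4A1 was between 14.4 and 18.2. NK cell markers, 3 of 4 measured, summed to between 24.3 and 48.3, neutrophil markers, 2 of 4, to between 122 and 666, and the 1 platelet marker measured of 4 to between 35.2 and 42.8. The part that these markers play in the results was not tested.

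The 3 catalytic subunits of the standard core had their highest means in M1, by less than 2-fold. PSMB5, the chymotrypsin-like subunit, averaged 3074 normalized counts in M0 against 3740 in M1 and 3036 in M2. PSMB6, the caspase-like subunit, had 1720.2, 2344 and 1902, and PSMB7, the trypsin-like subunit, had 2218, 3202 and 2720.3. Their log2 ratios of M1 over M0 were 0.28, 0.45 and 0.53, which are folds of 1.22, 1.36 and 1.44, and 0 of the 3 passed 2-fold.

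The immunoproteasome subunits that replace them differed far more. PSMB9, also called LMP2, which takes the place of PSMB6, averaged 5115 normalized counts in M0 against 14205 in M1 and 7717 in M2. Its M1 mean was 2.78-fold that of M0, a log2 ratio of 1.47. PSMB10, also called MECL-1, which takes the place of PSMB7, had 1624, 8607 and 2386 in M0, M1 and M2. That is a fold of 5.30 and a log2 ratio of 2.41 for M1 over M0, higher than 98.8% of all genes past the count minimum. PSMB8, the third immunoproteasome subunit, was not analysed here.

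A ratio within each measured pair compares the mRNA of the immune and the standard form without needing the length of either gene. The proteins were not measured here. The ratio of PSMB10 to PSMB7 was 3.67-fold higher in M1 than in M0, and that of PSMB9 to PSMB6 was 2.04-fold higher. In M2 the same ratios were 1.20 and 1.36 times those of M0. Both pairs thus stood between M0 and M1 in M2 macrophages, nearer to M0.

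**Figure D2:**
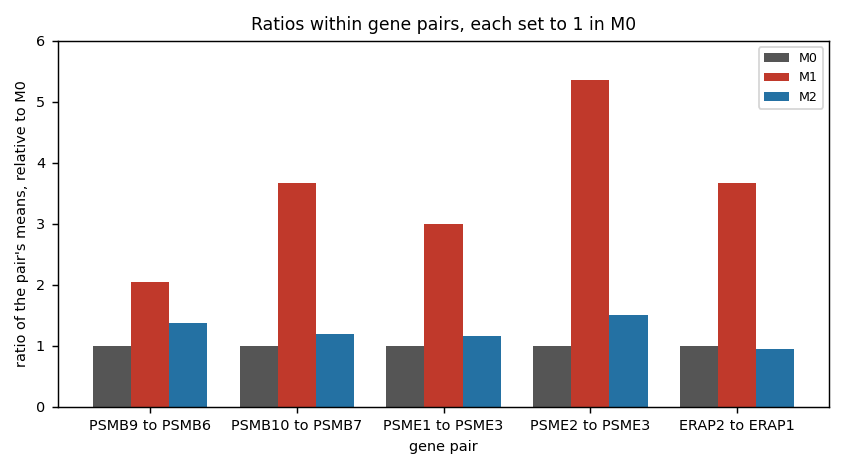
Ratio of the group means within 5 gene pairs (horizontal axis), each divided by its value in M0 (vertical axis, a ratio without unit), in M0, M1 and M2; bars start at 0 and have no error. PSME2 to PSME3 reached 5.35 in M1, and the M2 bars lie between 0.936 and 1.501.

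The activators split by kind. PSME1 and PSME2 encode the alpha and beta chains of PA28, which opens the core and is induced by IFN-γ in other species, while PSME3 encodes the nuclear PA28 gamma and PSME4 the large activator PA200. PSME1 averaged 2645 normalized counts in M0 against 10214 in M1 and 3472 in M2. PSME2 averaged 2534 in M0 against 17494 in M1 and 4285 in M2, and its M1 mean was 6.90-fold that of M0. The log2 ratios of M1 over M0 were 1.95 for PSME1 and 2.79 for PSME2. PSME3, with 1700.2, 2192 and 1916, and PSME4, with 2436, 3052 and 2149, had log2 ratios of 0.37 and 0.33. Relative to PSME3, PSME2 was 5.35-fold higher in M1 than in M0 and PSME1 was 3.00-fold higher. The 2 chains of PA28 were not matched in size of difference, as the ratio of PSME2 to PSME1 was itself 1.79-fold higher in M1.

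PSMF1, which encodes PI31, named for its inhibition of the core in vitro, averaged 2725 normalized counts in M0 against 4204 in M1 and 2590 in M2, a log2 ratio of 0.63 for M1 over M0.

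The standard subunits differed in the same direction. Of 27 measured subunits of the core and the cap outside the immunoproteasome, 27 had a higher mean in M1 than in M0, with folds from 1.21 for PSMD8 to 2.53 for PSMA5 and a median log2 ratio of 0.58. The SD of the log2 ratio over these 27 genes, which are not replicates, was 0.23. By part, the median was 0.74 for 6 alpha subunits, 0.59 for 4 structural beta subunits, 0.45 for the 3 catalytic ones, 0.60 for 4 ATPases of the cap and 0.56 for 10 other cap subunits. The core and the cap thus had similar medians, and 2 of the 27 genes passed 2-fold.

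PSMA5, the alpha 5 subunit, stood apart from the other alpha subunits. It averaged 1756 normalized counts in M0 against 4449 in M1 and 2112 in M2, a log2 ratio of 1.34 for M1 over M0. The other 5 alpha subunits lay between 0.29 (PSMA6) and 0.89 (PSMA4). PSMA4 had means of 151, 280 and 178 normalized counts. The structural beta subunits lay between 0.38 (PSMB3) and 0.70 (PSMB1).

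Among the ATPases, which form the ring that unfolds substrates, log2 ratios of M1 over M0 ran from 0.43 (PSMC5) to 0.64 (PSMC2). PSMD14, the deubiquitinase that takes ubiquitin chains off the substrate, had the largest ratio of the cap, averaging 1130 in M0 against 2265 in M1 and 1500.3 in M2. Its fold of 2.00 put it just inside the threshold, a call lost with a pseudocount of 10, after centring or after division by the group's sum, and PSMA4, at 1.86, was the member nearest to it outside. PSMD3, PSMD13 and PSMD11, of the lid, followed at log2 ratios of 0.77, 0.77 and 0.74. The ubiquitin receptor PSMD4 was at 0.42 and PSMD2, a scaffold of the base, at 0.53. PSMD8 was lowest, at 0.28.

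Among the measured assembly factors, PSMG2 and PSMG4 stood apart from the rest in M1 over M0. PSMG2, which pairs with PSMG1 as a chaperone of the alpha ring, averaged 758 normalized counts in M0 against 1840 in M1 and 1609 in M2. Its partner PSMG1 had 658, 876 and 761. PSMG2 was thus 2.43-fold and 2.12-fold above M0 in M1 and M2, where PSMG1 was 1.33-fold and 1.16-fold above. PSMG4, the partner of PSMG3 in the second chaperone pair, was the only measured subunit or chaperone of the proteasome with a lower mean in M1, at 310.5 in M0 against 213 in M1 and 338 in M2, a log2 ratio of -0.54. PSMG3 had 242, 304 and 285, and the cap chaperones PSMD9 (p27) and PSMD10 (gankyrin) were at log2 ratios of 0.25 and 0.42 in M1 over M0.

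Matching by symbol also took PSMC3IP, a factor of meiotic recombination, and PSME3IP1, a partner of PA28 gamma, which are not proteasome subunits. PSMC3IP had means of 65.3, 42.5 and 47.9 normalized counts and was at -0.62 in M1 over M0. PSME3IP1 was at 0.18.

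**Figure D3:**
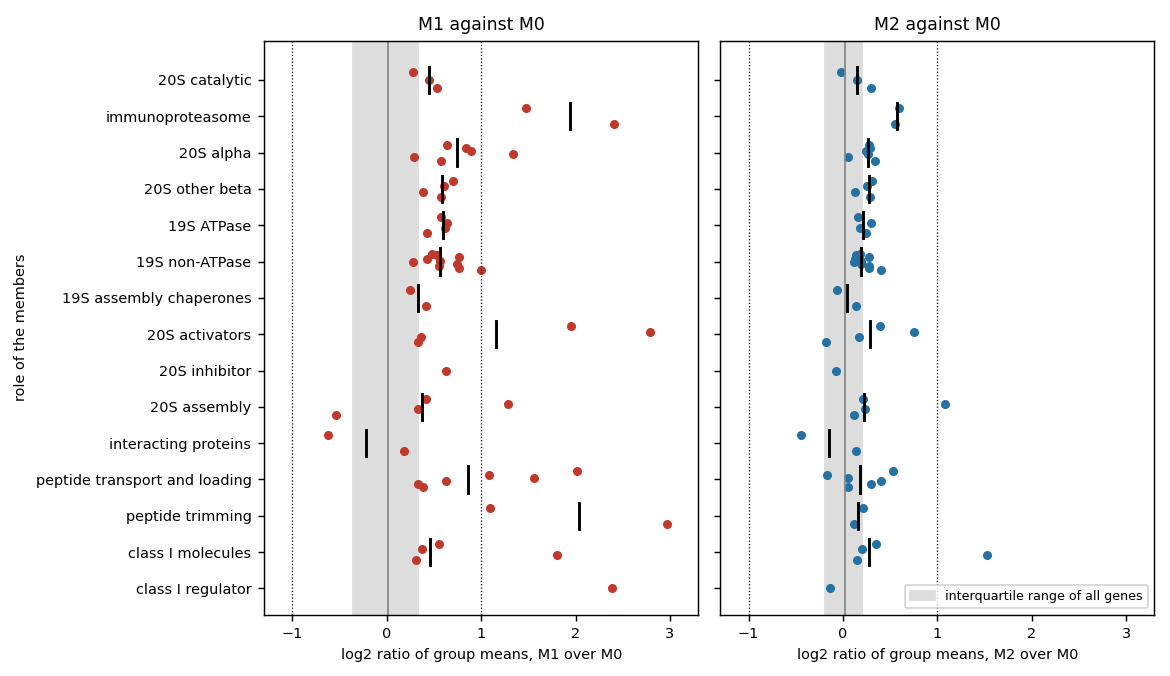
Log2 ratio of group means (horizontal axes) for each member by role (vertical axis), M1 over M0 on the left and M2 over M0 on the right; each point is a gene, a black bar the median of a role with 2 or more genes, the grey band the interquartile range of all genes and the dotted lines a 2-fold difference. The 2 panels share the M0 samples. On the left 14 points lie past 2-fold and on the right 2, PSMG2 and DLA-79.

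In the class I pathway itself, the genes of transport and of peptide editing differed more than the general ER chaperones. TAP1, a chain of the peptide transporter, averaged 18086 normalized counts in M0 against 73266 in M1 and 26206 in M2, a fold of 4.05 and a log2 ratio of 2.02 for M1 over M0. TAPBP, which encodes tapasin, the bridge between TAP and class I, had 14172, 30077 and 12568. TAPBPL, which encodes the peptide editor TAPBPR, had 630.2, 1853 and 652. Their M1 means were 2.12-fold and 2.94-fold those of M0. Calreticulin (CALR), a chaperone that also folds other glycoproteins, had 23446, 36143 and 30980.4 in M0, M1 and M2. Calnexin (CANX), another such chaperone, had 22275, 27941 and 27423, and their partner PDIA3 had 16732, 21886 and 17376. These 3 were 1.54-fold, 1.25-fold and 1.31-fold higher in M1 than in M0 and did not pass 2-fold. TAP2 was not analysed here.

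The trimming enzymes cut the front end of peptides in the ER. ERAP1 averaged 3635 normalized counts in M0 against 7752 in M1 and 4207 in M2, and its M1 mean was 2.13-fold that of M0. ERAP2 had 359, 2811 and 389, a fold of 7.83 and a log2 ratio of 2.97, the largest of the 55 members in this comparison and higher than 99.2% of all genes past the count minimum. The ratio of ERAP2 to ERAP1 was 3.67-fold higher in M1 than in M0, and in M2 it was 0.936 of its value in M0.

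NLRC5, the transactivator that binds class I promoters, averaged 2807 normalized counts in M0 against 14621 in M1 and 2551 in M2. The M1 mean was 5.21-fold that of M0, and the M2 mean was 0.909 of it.

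The class I molecules differed less, apart from DLA-79. DLA88, the polymorphic classical heavy chain of the dog, averaged 132349 normalized counts in M0 against 164556 in M1 and 146996 in M2. DLA-64 had 259405, 334777 and 298014, and beta-2-microglobulin (B2M), the light chain, had 231474, 338404 and 295151. Their M1 means were 1.24-fold, 1.29-fold and 1.46-fold those of M0. DLA-79, a nonclassical class I gene that lies on another chromosome than the other 2 heavy chains, had 5525 in M0 against 19257 in M1 and 15912 in M2, a log2 ratio of 1.80 in M1 and 1.53 in M2. The ratio of DLA-79 to DLA88 was 2.80-fold higher in M1 and 2.59-fold higher in M2 than in M0. Together the 4 class I genes made up 2.35% of the summed means in M0 against 3.06% in M1 and 2.77% in M2. Dog class I genes are similar and vary between dogs, and the counts were made on 1 reference genome. How reads matching several of them were treated is not given in the sources used here. The values of DLA88, DLA-64 and DLA-79 are therefore uncertain, and so are the differences of DLA-79 past 2-fold.

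Several members are neighbours in the RefSeq gene table of the assembly UU_Cfam_GSD_1.0, in which 55 of 55 were found. TAP1 and PSMB9 had 0 protein coding genes between them, and their log2 ratios of M1 over M0 were 2.02 and 1.47. ERAP2 and ERAP1 also had 0 between them, with 2.97 and 1.09, and PSME1 and PSME2 had 1, with 1.95 and 2.79. DLA88 and DLA-64, with 2 genes between them, were at 0.31 and 0.37, and PSMD4 and PSMB4, with 4, at 0.42 and 0.57. Neighbours were not always alike in the size of the ratio, as the values of ERAP2 and ERAP1, both past 2-fold, show. PSME3IP1 (0.18) and NLRC5 (2.38), with 1 gene between them, also differed. Neighbouring genes outside the members were not compared.

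In M2 macrophages most members had a higher mean than in M0, by less than 2-fold. Of the 55 genes, 48 had a higher mean in M2 than in M0, against 53.1% of 10787 genes past the count minimum. Past 2-fold 2 were higher, a share close to the 2.99% of all genes, and 0 were lower, against 3.49%. Those 2 were DLA-79, at 2.88-fold, and PSMG2, at 2.12-fold. Next came PSME2 at a log2 ratio of 0.76, PSMB9 at 0.59 and PSMB10 at 0.55. The median log2 ratio of all members was 0.21, where that of all genes was 0.02, with quartiles of -0.19 and 0.21. The 27 standard subunits ran from -0.02 (PSMB5) to 0.41 (PSMD14), with 26 of them above M0 and a median of 0.24.

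The genes with the widest differences in M1 were not alike in M2. The M2 means of PSMB9, PSMB10, PSME2 and TAP1 were 1.51-fold, 1.47-fold, 1.69-fold and 1.45-fold those of M0. NLRC5 and TAPBP were slightly below M0, at log2 ratios of -0.14 and -0.17, and TAPBPL and ERAP2 were at 0.05 and 0.12. Both sets of ratios were taken against the same M0 samples.

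Set directly against M1, M2 macrophages had the lower mean for 53 of the 54 members past the count minimum, against 50.4% of 10737 genes. These ratios use the same M1 means as those of M1 over M0, so the 2 comparisons are not independent. Past 2-fold 9 members were lower in M2, against 5.72% of all genes, and 0 were higher, against 7.0%. These 9 were ERAP2 (-2.85), NLRC5 (-2.52), PSME2 (-2.03), PSMB10 (-1.85), PSME1 (-1.56), TAPBPL (-1.51), TAP1 (-1.48), TAPBP (-1.26) and PSMA5 (-1.07), as log2 ratios of M2 over M1. PSMB9 and ERAP1, both past 2-fold between M1 and M0, did not reach it here, with -0.88 each. Nor did PSMD14, at -0.59, or the 2 members past 2-fold over M0 in both polarized states, DLA-79 at -0.28 and PSMG2 at -0.19. The 1 member higher in M2 was PSMG4, at 0.66. The median of the members was -0.34, and that of all genes was 0.00.

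**Figure D4:**
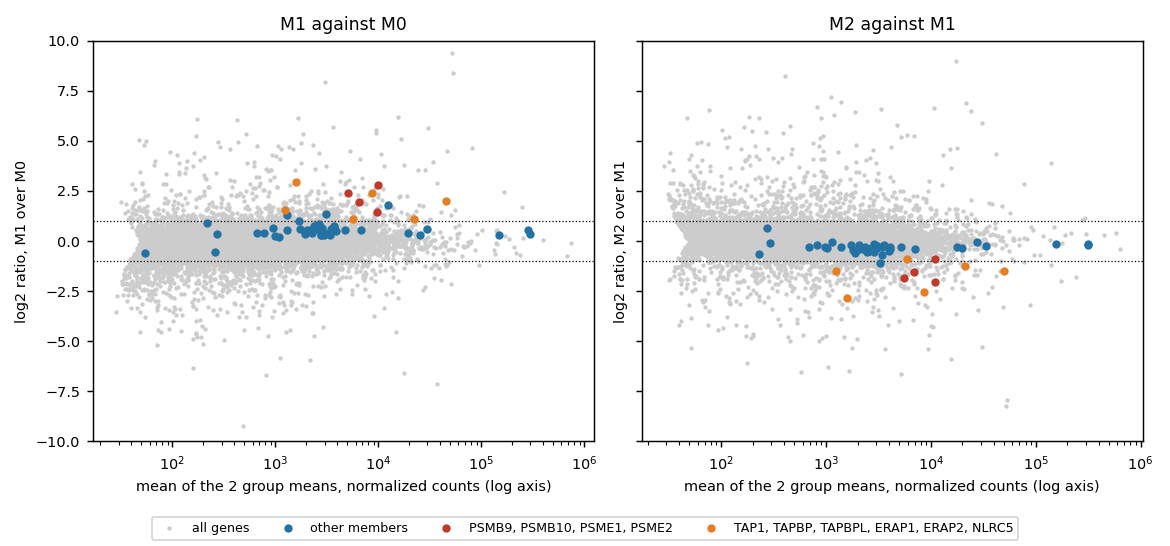
Log2 ratio (vertical axes) of M1 over M0 (left) and M2 over M1 (right), with dotted lines at a 2-fold difference. The horizontal log axes give the mean of the 2 group means in normalized counts, with all genes past the count minimum in grey. PSMB9, PSMB10, PSME1 and PSME2 are in red, and TAP1, TAPBP, TAPBPL, ERAP1, ERAP2 and NLRC5 in orange. The other members are in blue, so the coloured sets are picked genes and not whole roles. The 2 panels share the M1 samples. On the right 9 members lie below the lower line and 0 above the upper one.

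Other genes of the pathway that are not members were read from lists of partners and relatives, to be set against the 5.56% of all genes past 2-fold as higher in M1, the 8.77% as lower and the 51.3% with a higher mean. Of 20 partners of the proteasome 18 were measured, and 0 passed 2-fold in either direction between M1 and M0, while 16 had a higher mean in M1 and the median log2 ratio was 0.38. NFE2L1, the transcription factor that restores proteasome genes when the proteasome is blocked, had means of 4874, 7211 and 5294 normalized counts in M0, M1 and M2, a log2 ratio of 0.57. Of 10 ER folding genes, 10 were measured, 0 passed and the median was 0.18.

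Of 8 peptidases that act on peptides outside the proteasome 8 were measured, and 1 passed 2-fold as higher in M1, against 5.56% of all genes. It was LAP3, leucine aminopeptidase, averaging 4377 normalized counts in M0 against 51802 in M1 and 4770 in M2, a log2 ratio of 3.57. The other 7 lay between -0.11 (NPEPPS) and 0.73 (NLN). Of 4 class I relatives 2 were measured, the neonatal Fc receptor FCGRT at -0.09 and HFE at 0.09.

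Of 10 genes of the interferon relay 8 were measured, and 3 passed as higher in M1 and 1 as lower. IRF1, a transcription factor that acts on class I and immunoproteasome genes, averaged 3804 in M0 against 44367 in M1 and 6449 in M2. JAK2, a kinase of the IFN-γ receptor, had 4296, 17622 and 8823. The log2 ratios of M1 over M0 were 3.54 and 2.04. The receptor chain IFNGR1 was lower in M1, at 8970.0 in M0 against 3105 in M1 and 4889 in M2, a log2 ratio of -1.53. Of 5 genes of ubiquitin-like conjugation 3 were measured, and UBE2L6, the conjugating enzyme of ISG15, passed at 1.55, while ISG15 itself was at 0.18.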

How the data were processed

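Poly-A selected RNA of 9 macrophage cultures was sequenced. Per the labels and the methods, filtered reads were mapped by the authors to CanFam3.1 (STAR 2.7.3a, Partek 7.0), assigned to genes by HTSeq, and normalized and compared by DESeq2. The values used are the signal columns of the deposited table, the authors' least squares mean of normalized counts in each group, for protein coding genes. The authors' scaling by DESeq2 makes the groups comparable but removes their depth, and averaging removes the spread between dogs. The table's ratios, fold changes, p-values and FDRs, and 3 further sheets of log2 ratios, are the authors' own comparisons and were not used. With no values per sample, no model, test, interval or analysis by dog was run.

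Ratios of means were computed without a pseudocount in Python 3.11.15 with numpy 2.4.6 and pandas 2.3.3, and drawn with matplotlib 3.10.9. A gene was counted past a threshold of 2-fold (log2 ratio of 1) where the larger mean was at least 50, and the same count over all genes was set beside it. The computation was tested on simulated data. The members, the 16 role groups, 6 further lists and 7 marker lists were chosen with earlier results of these data known, so their counts are a description. The rule for named genes was to give all 3 means for the catalytic subunits, the activators, the genes of the class I pathway and each member past 2-fold, and other members by range, count and median. Genes named outside it, among them PSMG1, PSMG3 and NFE2L1, were picked after their values were seen. Of the subunits and partners listed by role, 12 were not analysed here, among them PSMB8, PSMA1, PSMC3, PSMC6, PSMD6, POMP and TAP2. Of the 7 marker lists, the fibroblast list had 0 of 5 genes measured. Alternatives were other fold and count thresholds, a pseudocount of 10, centring on the median of all genes and division by the group's sum.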

Additional observations from a re-analysis of the deposited data

How the results depend on the processing

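Over the members, the counts past the fold followed the threshold itself. At 1.5-fold, 26 members were higher and 1 lower in M1 than in M0, 4 were higher in M2 than in M0, and 1 was higher and 14 lower in M2 than in M1. At a log2 ratio of 1.5 they were 8 in M1 and 1 in M2 against M0, and 6 were lower in M2 than in M1. Without a count minimum, with one of 200, with a pseudocount of 10, after centring and after division by the group's sum, each of the 6 counts stayed within 1.5 times its main value. PSMD14, at a log2 ratio of 1.00 for M1 over M0, was no longer past 2-fold with the pseudocount (0.996), the centring (0.989) or the division (0.934), which left 13 members higher. The largest shift of a member's log2 ratio was 0.10 with the pseudocount, 0.07 with the division and 0.02 with the centring. Of the medians by role, those of PSMC3IP and PSME3IP1, which are not subunits, turned to 0.18 (M1 over M0) and 0.14 (M2 over M0) at a minimum of 200, where PSME3IP1 alone was left, and that of M2 over M1 was 0.069 without a minimum, where PSMC3IP was added. The other medians moved by less than 0.1. No paired analysis was possible because the table holds group means, and for the same reason leaving out replicates and count models per sample were not run. Without errors, small ratios such as 0.28 for PSMB5 cannot be told from the spread between dogs.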
